A study of Mus musculus with 104 samples.

Results

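The experiments described here mapped DNA break junctions in mouse embryonic stem cells (ESC) that carried the bait break on chromosome 12, treated with aphidicolin (APH) or with DMSO. They were taken as the deposited tables of ESC line 1 and ESC line 2 with the chromosome 12 bait, and they make up 16 of the 104 experiments of the series, 289232 of its 2018794 junctions. The groups were line 1 APH, line 1 DMSO, line 2 APH and line 2 DMSO, with 4 experiments (A to D) each. All 16 share the genotype Xrcc4-/- p53-/- and the strain C57BL/6/129SVE, so the DMSO cells also lack p53, a tumour suppressor, and Xrcc4, which helps to ligate broken ends. The labels give neither the dose nor the duration of the APH treatment, and do not say whether each line is 1 clone or whether the experiments came from separate cultures. The p-values therefore measure the spread between these experiments, which may be technical. The tables hold no expression values, so the labelled cell type could not be set against markers.

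High-throughput genome-wide translocation sequencing (HTGTS) starts from a double-strand break at a known bait site. The bait end is amplified together with whatever broken end it was joined to, called the prey, so each junction marks a break elsewhere in the genome. APH inhibits the replicative DNA polymerases and slows replication forks. Under mild replication stress, breaks gather in recurrent clusters, many of them within very long genes that are transcribed and replicated late, and some of these genes lie at common fragile sites. Broken ends also join most readily to ends nearby on the same chromosome, so a bait sees more of its own chromosome than of others.

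The bait alignment began at position 13000729 of chromosome 12 in the mm9 genome, and its most frequent end was 13000857. Distances were measured from that end. The bait lay on the plus strand and read toward higher coordinates, and positions above the break are called right of it. The sequences below show the bait as read and 10 of the joins made by APH-treated cells, in the regions that the results turn on. In the joins, capitals mark the bases shared by bait and prey (overlap), the bases between them that match neither alignment (inserted), or the prey itself where the ends met without either (blunt). The 20 bases before the capitals are bait.
Bait, chr12:13000729-13000857, plus strand: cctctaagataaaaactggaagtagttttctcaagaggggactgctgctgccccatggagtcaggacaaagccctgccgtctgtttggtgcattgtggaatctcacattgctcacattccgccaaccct
Hdac9 region, overlap, chr12:35242844-35242908, minus strand: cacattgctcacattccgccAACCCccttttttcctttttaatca
Hdac9 region, blunt, chr12:35236776-35236959, minus strand: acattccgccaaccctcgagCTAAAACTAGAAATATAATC
Hdac9 region, inserted, chr12:35251227-35251328, minus strand: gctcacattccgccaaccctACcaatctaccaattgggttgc
Wwox region, overlap, chr8:117339496-117339553, plus strand: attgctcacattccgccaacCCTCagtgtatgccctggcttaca
Wwox region, blunt, chr8:117361231-117361282, minus strand: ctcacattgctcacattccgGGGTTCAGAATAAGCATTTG
Wwox region, inserted, chr8:117358872-117358958, minus strand: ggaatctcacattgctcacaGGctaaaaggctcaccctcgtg
Auts2 region, overlap, chr5:132449505-132449621, plus strand: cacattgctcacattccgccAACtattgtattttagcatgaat
Auts2 region, blunt, chr5:132436519-132436591, plus strand: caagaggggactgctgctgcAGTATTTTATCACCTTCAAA
Auts2 region, inserted, chr5:132422621-132422683, plus strand: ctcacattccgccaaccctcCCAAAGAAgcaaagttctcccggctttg
Right of the break, overlap, chr12:13397028-13397309, plus strand: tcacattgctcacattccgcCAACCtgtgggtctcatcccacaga
The coordinates are those of the prey alignment in mm9, and the letters are those of the deposited reads. The bait ends of these joins lay at different distances from the most frequent bait end: that of the Auts2 blunt join lay 78 bases before it, that of the inserted join near Hdac9 lay on it, and that of the Hdac9 blunt join lay past it.

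In line 1 the total per experiment was 7321 to 18142 junctions with APH and 7960 to 11624 with DMSO, and in line 2 it was 18026 to 22189 with APH and 27321 to 30682 with DMSO. APH and DMSO experiments of the same letter came from the same sequencing run in every pair, going by the read names. In line 1, experiments of the same group shared at most 5 junctions beyond 5 Mb (0.442% of the smaller experiment). In line 2 they shared 62 to 1427 (2.29 to 51.1%), with A and B sharing most with each other, and so C and D. Each of these pairs was therefore counted as 1 sample (the samples left apart still shared up to 9.24%), which left 4 and 4 samples in line 1 and 2 and 2 in line 2. Line 2 experiments under different treatments also shared up to 281 junctions (12.2%), against up to 28 (1.45%) in line 1; the results without junctions found under both treatments are among the alternatives. Beyond 5 Mb from the break the samples held 2848, 2600, 878 and 2156 junctions in line 1 APH, 2013, 1163, 679 and 915 in line 1 DMSO, 3775 and 3430 in line 2 APH, and 4551 and 4785 in line 2 DMSO. Experiment A of line 1 stood apart under both treatments, with 23.0% of its junctions on other chromosomes under APH, against 9.62 to 12.1% in B to D, and 15.9% under DMSO, against 6.98 to 9.35%.

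The first comparison asked where along the genome the joins were made. Most joined the bait to sequence within 10 kb of the break, and the share that reached farther along chromosome 12 was higher with APH in both lines. Chromosome 12 beyond 5 Mb held 3.07, 2.28, 2.39 and 2.10% of junctions in line 1 APH experiments A to D, against 1.39, 1.32, 1.55 and 1.45% in line 1 DMSO. In line 2 it held 1.80, 2.00, 1.69 and 1.66% under APH and 1.43, 1.42, 1.58 and 1.54% under DMSO. Every APH experiment lay above every DMSO experiment of its line, with a gap of more than the range of the DMSO values in line 1 and a narrow gap in line 2. The difference, averaged over the lines, was 0.664 percentage points, and both lines differed the same way, by 1.03 points in line 1 and 0.296 in line 2. The two-sided exact permutation test within lines gave p = 0.00476, the smallest it can give over its 420 assignments, and 0.0238 adjusted over the 5 shares tested. With each position and strand counted once in an experiment the adjusted p was 0.0714, for a difference of 0.668 points.

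At these limits of distance the other shares did not pass this test. With limits of 2 kb and 1 Mb the share nearest the break was lower under APH and the next share higher, and both passed. Within 10 kb of the break lay 76.5% ± 8.28 of junctions under APH and 84.0% ± 5.82 under DMSO in line 1 (SD, n = 4 each), and 80.7% ± 0.0405 and 81.4% ± 0.270 in line 2 (SD, n = 2 each). The mean difference was -4.10 points (exact permutation test, adjusted p = 0.179), with APH lower in 6 of 6 same-letter pairs. Between 10 kb and 5 Mb, line 1 held 7.18% ± 2.23 under APH and 4.32% ± 1.97 under DMSO, and line 2 held 8.29% ± 0.0536 and 7.28% ± 0.269. APH was higher there in 6 of 6 pairs, by 1.93 points (exact permutation test, adjusted p = 0.0833). On other chromosomes the lines differed in direction, with 13.9% ± 6.16 under APH and 10.3% ± 3.91 under DMSO in line 1, and 9.27% ± 0.147 and 9.85% ± 0.0942 in line 2 (exact permutation test, adjusted p = 0.514). Among junctions beyond 5 Mb alone, chromosome 12 made up 15.97% ± 3.32 under APH and 13.2% ± 4.18 under DMSO in line 1, and 16.2% ± 1.42 and 13.2% ± 0.866 in line 2 (exact permutation test, adjusted p = 0.143). In the paired form of the test, exact sign flips of the same-letter pairs that share a sequencing run, these 2 shares of chromosome 12, the share within 10 kb and the share at 10 kb to 5 Mb each had an adjusted p of 0.0391, and other chromosomes 0.156.

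**Figure D1:**
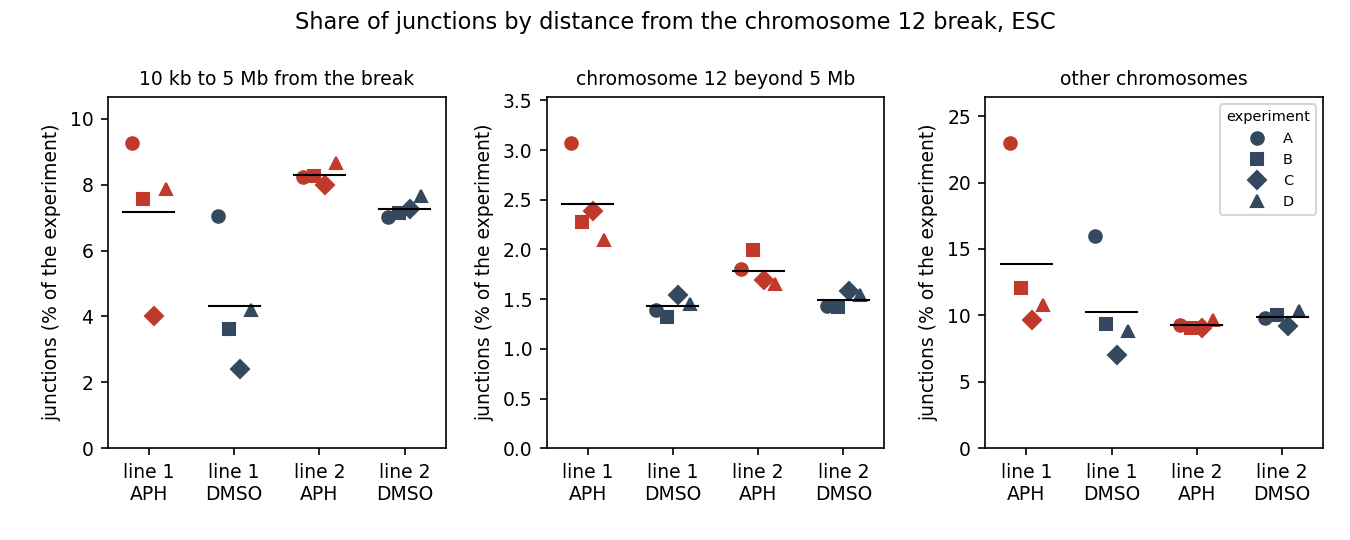
Share of junctions (% of the experiment, vertical axis) in 3 zones around the chromosome 12 break, by line and treatment. Each point is 1 experiment, shaped by its letter, and horizontal lines are means over the 4 experiments; in line 2, A and B share junctions, as do C and D. In the middle panel APH points lie above the DMSO points of their line, and line 1 APH experiment A stands highest at 3.07%.

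Within chromosome 12 the higher share under APH was uneven with distance. Junctions were placed in 12 bands of side and distance, which were set after the values were seen, and are given per 1000 junctions of the experiment. The p-values of the bands, adjusted or not, do not cover that choice of limits. From 20 to 40 Mb right of the break, line 1 held 8.04, 6.23, 8.47 and 4.77 per 1000 under APH, against 2.84, 2.47, 3.89 and 3.15 under DMSO. Line 2 held 6.28, 6.53, 4.72 and 4.21 under APH, against 2.65, 2.78, 2.60 and 2.74 under DMSO. The groups did not overlap in either line. The means differed 2.23-fold in line 1 and 2.02-fold in line 2 (exact permutation test, p = 0.00476, adjusted 0.0286 over the 12 bands).

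The higher count of this band lay mostly in 4 stretches, described below as the Hdac9, Dgkb and Immp2l regions and the one that starts at 51.5 Mb. Together they cover 3.5 Mb of the 20. They held 185 of the band's 343 junctions (53.9%) in line 1 APH and 16 of 119 (13.4%) in line 1 DMSO. In line 2 they held 214 of 453 (47.2%) under APH and 45 of 307 (14.7%) under DMSO. The rest of the band held 2.33 to 3.96 junctions per 1000 under APH and 1.83 to 3.14 under DMSO in line 1, and 2.36 to 3.33 and 2.01 to 2.47 in line 2, so the ranges of the rest overlapped. The stretches were chosen for their APH effect on these junctions, so this division is a description.

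**Figure D2:**
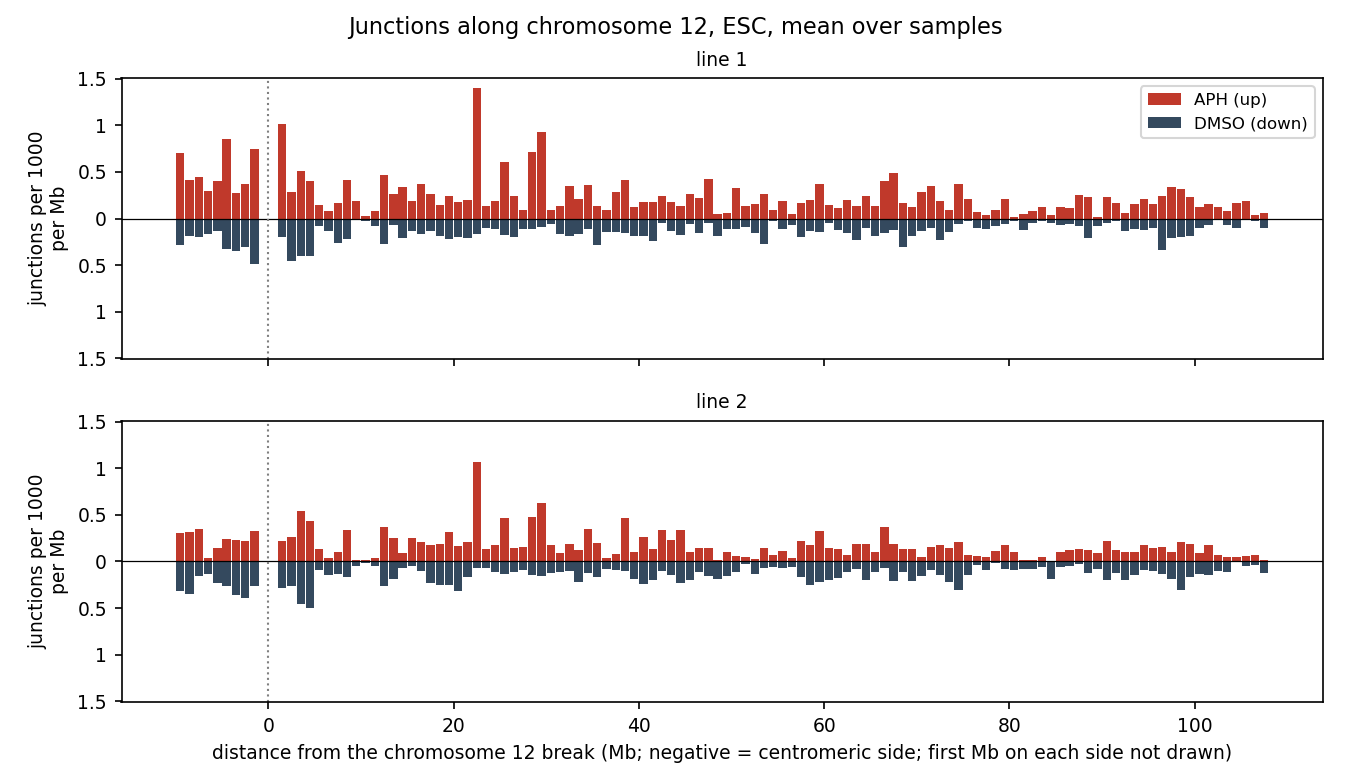
Junctions per 1000 per Mb (vertical axis, mean over samples) along chromosome 12, by distance from the break in Mb, with APH drawn upward and DMSO downward and 1 panel per line. The first Mb on each side of the break is not drawn. Under APH the tallest bar of each line starts 22 Mb right of the break, at 1.40 in line 1 and 1.07 in line 2, where the DMSO bars are 0.17 and 0.0716. From 22 to 30 Mb some APH bars are tall and others low, and line 1 has another tall APH bar (1.01) starting 1 Mb right of the break.

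A second band stood out close to the break. From 100 kb to 1 Mb right of it, line 1 held 4.57, 3.69, 3.14 and 4.11 junctions per 1000 under APH, against 0.86, 0.458, 1.13 and 1.12 under DMSO. Line 2 held 3.51, 3.79, 3.83 and 4.45 under APH, against 1.56, 1.45, 1.54 and 1.56 under DMSO. The lowest APH experiment of each line thus had more than double the highest DMSO experiment. The means differed 4.34-fold in line 1 and 2.55-fold in line 2 (exact permutation test, p = 0.00476, adjusted 0.0286). The limits of this band, too, were set after the values were seen, which these p-values do not cover. The same distance left of the break held 1.92 ± 0.406 per 1000 under APH and 0.958 ± 0.151 under DMSO in line 1 (SD, n = 4 each), and 1.51 ± 0.00739 and 1.54 ± 0.103 in line 2 (SD, n = 2 each), which did not pass (exact permutation test, adjusted p = 0.0571). Whether the sides differ was not tested. The other 10 bands did not pass (exact permutation tests, adjusted p from 0.0571 to 0.405). Without any 1 of the line 1 DMSO samples, or without line 2 DMSO sample AB, the adjusted p of the 2 bands that passed was 0.0571. In same-letter pairs both bands were higher under APH in 6 of 6, with an adjusted p of 0.0750 by exact sign flips, which cannot give a p below 0.0312 before adjustment.

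Beyond 650 kb few junctions were found under either treatment. Between 250 and 300 kb the 4 APH experiments of line 1 held 23 junctions and its DMSO experiments 0, and line 2 held 31 and 5. Between 350 and 400 kb they held 14 and 5 in line 1, and 11 and 9 in line 2. Between 550 and 600 kb line 1 held 8 and 3, but line 2 held 1 under APH and 8 under DMSO. Between 650 and 700 kb line 1 held 1 and 1, and line 2 held 0 and 1. The gene start of Nbas, whose product acts in Golgi-to-ER transport and in nonsense-mediated decay, was found in prey reads at 275 kb right of the break. Nbas is 368 kb long in RefSeq's GRCm38.p6 and runs away from the break. The start of Ddx1, an RNA helicase gene of 30 kb, lay at 255 kb, and the next protein-coding start found, that of Lratd1, at 1158 kb. The higher count under APH began before Nbas: between 100 and 250 kb line 1 had 35, 21 and 17 junctions per 50 kb under APH and 6, 5 and 5 under DMSO, and line 2 had 68, 28 and 23 against 43, 17 and 10.

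**Figure D3:**
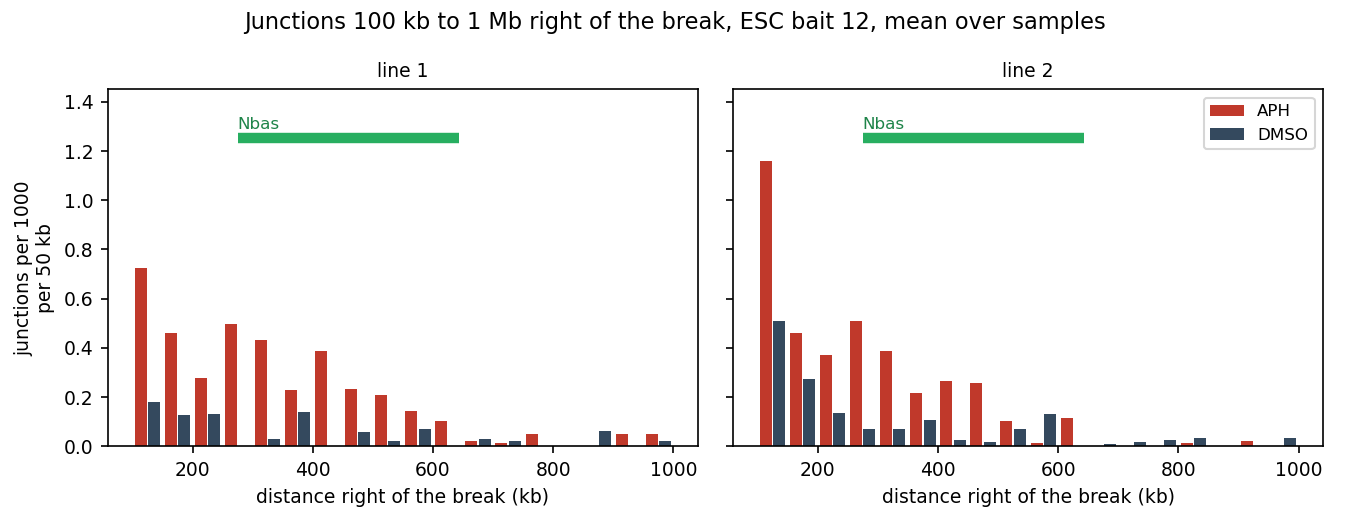
Junctions per 1000 in steps of 50 kb (vertical axis, mean over samples) from 100 kb to 1 Mb right of the break, for APH and DMSO, 1 panel per line. The green bar is Nbas, drawn from its start at 275 kb with its GRCm38.p6 length of 368 kb. APH bars exceed DMSO bars in the steps up to 550 kb, the line 2 DMSO bar is the higher one at 550 to 600 kb, and few junctions lie beyond 650 kb under either treatment.

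The same interval was looked at in other cells and baits of the series. In NPC, the neural progenitor cells differentiated from these lines, the chromosome 12 bait gave 9.25 junctions per 1000 under APH and 3.48 under DMSO in line 1, and 13.9 and 5.48 in line 2, with junctions counted once over a line and treatment. With the bait on chromosome 15, ESC had 0 junctions there under APH in either line and 2 under DMSO in each. With the bait on chromosome 7, ESC had 1 under APH and 0 under DMSO in line 1, and 5 and 1 in line 2. These other baits had 4371 to 8554 ESC junctions more than 5 Mb from their own breaks in each line and treatment. No test was made between these sets.

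The third comparison asked which 500 kb bins beyond 5 Mb gained or lost junctions with APH. In edgeR's quasi-likelihood test 16 of 445 bins gained junctions (3.6%) and 0 lost them, at a threshold of 0.05 on the Benjamini-Hochberg adjusted p. The unadjusted p was below 0.05 for 47 higher and 4 lower bins, and DESeq2 called 12 higher and 0 lower, with no adjusted p for 302 bins. The median log2 change of all 445 bins was 0.28, and the changes below are to be read against it. With library size alone as the scale that median was 0.07, and 12 of the 15 named bins passed. The TMM scaling factors ranged from 0.662 in the deepest sample to 2.15 in the shallowest. Within single lines, 11 bins rose in line 1 (2.47%) and 8 in line 2 (1.8%), of which 6 rose in both. The test of the difference between the lines called 0 bins in edgeR (33 at an unadjusted p under 0.05) and 0 in DESeq2 (3 unadjusted).

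Chromosome 12 held 8 of the 16, out of 155 bins tested there (5.16%), and the other chromosomes held 8 of 290 (2.76%). The 15 bins with the smallest adjusted p were all higher in both lines, and formed 11 regions. The naming rule asked for the same sign in both lines, and all 16 called bins had it. Calls and signs come from the same samples, so this is no separate test of agreement. Under DMSO the chromosome 17 bin held 72 junctions and the other named bins 0 to 10. Those other bins therefore reached the filter of 12 junctions only with their APH junctions. The text gives each region's junctions per sample, then the log2 change and its standard error for a bin. Where it says that treatments did not overlap, this is a description of regions chosen on these same samples. The share of all tested bins without overlap was not counted. Genes were placed by matching RefSeq promoter sequence to prey reads, and a region is called by the longest gene of at least 200 kb between the nearest matched gene starts. These are the starts on either side of the region's median APH junction, and the gene overlaps the interval between them. The interval need not cover the whole region: near Hdac9 it is 251 kb long and lies inside the region. Overlap of the gene with the bins was not measured. Of 10 long chromosome 12 genes listed for this work, Hdac9, Immp2l, Dock4 and Gphn fell in these intervals, and of 13 fragile site genes Wwox, Auts2 and Lpp did. Of all 50 RefSeq genes of at least 200 kb on chromosome 12, 6 fell in them (12%), and of 1068 in the genome 10 did (0.936%). The lists hold long genes by choice and are not length-matched to these, so nothing is read from their counts. The other listed genes were not located, and the lists were drawn up with earlier results of these data known.

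The Hdac9 region was the most populated gained region on chromosome 12. Hdac9 encodes a class IIa histone deacetylase and is 870 kb long. The region, chr12:35000001-36000000, begins 22 Mb right of the break, and the matched Hdac9 start lies within it. It held 19, 26, 12 and 13 junctions in line 1 APH, against 0, 1, 2 and 3 in line 1 DMSO. In line 2 it held 38 and 26 under APH, against 5 and 1 under DMSO. The groups did not overlap in either line, and per 1000 junctions beyond 5 Mb the lowest APH sample had 6.03 and the highest DMSO sample 3.28. The first of its bins rose by 3.56 ± 0.42 on the log2 scale (edgeR, adjusted p = 2.71e-14). The second bin rose by 2.60 ± 0.79 (edgeR, adjusted p = 0.0338) but kept its call under 0 of 4 other scalings and in 2 of 12 fits that left out 1 sample.

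The Immp2l region, chr12:41500001-43000000, spans 3 called bins from 28.5 Mb right of the break. Immp2l encodes a subunit of the mitochondrial inner membrane peptidase and is 932 kb long. Dock4, a guanine nucleotide exchange factor gene, also exceeds 200 kb and lies in the same interval, whose length differs by 374 kb between mm9 and GRCm38.p6. The region held 12, 26, 15 and 17 junctions in line 1 APH and 0, 4, 1 and 0 in line 1 DMSO, and 30 and 21 in line 2 APH against 3 and 12 in line 2 DMSO. Its groups did not overlap in either line. Of its bins, the one at 42.5 Mb rose by 3.53 ± 0.66 (edgeR, adjusted p = 8.03e-06) and that at 41.5 Mb by 2.48 ± 0.65 (adjusted p = 0.00692). The bin at 41.5 Mb missed the threshold without line 1 APH D or line 1 DMSO A (edgeR, adjusted p = 0.0512 and 0.0643). The bin at 42.0 Mb rose by 1.91 ± 0.58 (adjusted p = 0.0313) and kept its call under 0 of 4 other scalings and in 3 of 12 fits that left out 1 sample.

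Dgkb, Gphn and the stretch at 51.5 Mb complete chromosome 12. Dgkb encodes a diacylglycerol kinase and is 754 kb long. The Dgkb region, chr12:38500001-39000000, held 14, 6, 3 and 7 junctions in line 1 APH against 0, 0, 1 and 0 in line 1 DMSO, and 9 and 11 in line 2 APH against 2 and 2 in line 2 DMSO. No sample overlapped between treatments, and the bin rose by 3.20 ± 0.62 (edgeR, adjusted p = 1.63e-05). Gephyrin, the product of the 467 kb gene Gphn, anchors receptors at inhibitory synapses, and Fut8, a fucosyltransferase gene, is the other gene of more than 200 kb in that interval. The Gphn region, chr12:79500001-80000000, held 6, 2, 1 and 4 junctions in line 1 APH against 0, 1, 0 and 2 in line 1 DMSO, and 10 and 8 in line 2 APH against 1 and 0 in line 2 DMSO. Line 1 overlapped there and line 2 did not, and the bin rose by 2.73 ± 0.71 (edgeR, adjusted p = 0.00692). Without line 2 APH AB, line 2 APH CD or line 2 DMSO CD that call was lost (edgeR, adjusted p from 0.0636 to 0.119). The stretch at chr12:51500001-52000000 had matched starts too far apart to name a gene. It held 3, 5, 3 and 4 junctions in line 1 APH against 0, 2, 2 and 0 in line 1 DMSO, and 12 and 7 against 1 and 3 in line 2. Per 1000 junctions beyond 5 Mb the treatments overlapped in line 1, with 1.05 in APH A and 2.95 in DMSO C. The rise of this stretch, 2.01 ± 0.62 (edgeR, adjusted p = 0.0361), kept its call under 0 of 4 other scalings and in 2 of 12 fits that left out 1 sample.

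Away from the bait chromosome the Auts2 and Wwox regions led. Auts2, which encodes a partner of a Polycomb complex that acts in neural development, is 1106 kb long; Galnt17, a glycosyltransferase gene, is the other gene of more than 200 kb in the interval. The Auts2 region, chr5:132000001-133000000, held 13, 15, 12 and 15 junctions in line 1 APH against 1, 2, 0 and 0 in line 1 DMSO, and 27 and 36 in line 2 APH against 3 and 3 in line 2 DMSO. The pooled share beyond 5 Mb was 11.8-fold higher under APH, with 7.52 per 1000 against 0.638. Its bins rose by 3.76 ± 0.61 and 3.49 ± 0.61 (edgeR, adjusted p = 1.00e-07 and 1.57e-06).

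Wwox encodes an oxidoreductase with WW domains and lies at a well-known common fragile site in humans. It is 913 kb long. The Wwox region, chr8:117000001-117500000, held 5, 8, 2 and 6 junctions in line 1 APH against 0, 1, 0 and 0 in line 1 DMSO, and 33 and 25 in line 2 APH against 1 and 4 in line 2 DMSO. Under APH, line 2 had 8.74 and 7.29 per 1000 and line 1 had 1.76 to 3.08, so the lines did not overlap. DMSO was low in both, and the bin rose by 3.75 ± 0.95 on the log2 scale in line 1 and 3.71 ± 0.61 in line 2. These are to be read against medians of all bins of 0.697 in line 1 and -0.0486 in line 2. The line 1 value rests on 1 DMSO junction. Over both lines the Wwox bin rose by 3.72 ± 0.56 (edgeR, adjusted p = 6.90e-09).

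The Lpp region and 2 unnamed regions were sparse. Lpp encodes a LIM domain protein of focal adhesions. The Lpp region, chr16:24500001-25000000, held 2, 2, 2 and 1 junctions in line 1 APH and 3 and 3 in line 2 APH, against 0 in each of the 6 DMSO samples. With 13 junctions against a floor of 3 over the DMSO group, the pooled share was at least 3.90-fold higher (edgeR, adjusted p = 0.00692). The bin passed the filter of 12 junctions through its APH junctions alone. It was therefore tested in only 7 of the 12 fits that left out 1 sample, and was called in those 7. The region chr1:25500001-26000000 held 3, 6, 0 and 4 junctions in line 1 APH against 0, 1, 0 and 0 in line 1 DMSO, and 6 and 7 against 1 and 1 in line 2, a rise of 2.89 ± 0.77 (edgeR, adjusted p = 0.00712). The region chr3:5500001-6000000 held 5, 2, 0 and 0 against 0 in each line 1 DMSO sample, and 4 and 5 against 0 and 1 in line 2, a rise of 3.36 ± 0.97 (edgeR, adjusted p = 0.0200). This last call was lost without any 1 of line 1 APH A, line 1 DMSO A, line 1 DMSO C, line 2 APH CD or line 2 DMSO AB (edgeR, adjusted p from 0.0632 to 0.116), and DESeq2 gave no adjusted p. The call on chromosome 1 was lost without line 2 APH CD (edgeR, adjusted p = 0.0637). In the chromosome 3 region 11 of the 17 junctions lay within 1 kb, whereas in the Hdac9 region no kb held more than 3 of 146.

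The region on chromosome 17 had another form. Its 163 APH junctions lay in 4 windows of 10 kb, most of them between 39.98 and 39.99 Mb, whereas the 134 of the Hdac9 region lay in 56 such windows and the 118 of the Auts2 region in 58. It held 24, 29, 6 and 20 junctions in line 1 APH against 9, 4, 5 and 2 in line 1 DMSO, and 44 and 40 in line 2 APH against 27 and 25 in line 2 DMSO. Per 1000 junctions beyond 5 Mb the treatments overlapped in line 1, with 6.83 in APH C and 7.36 in DMSO C. Unlike the other regions, this region was well filled under DMSO, with 5.10 per 1000 against 10.4 under APH in the pools. Its bin rose by 1.31 ± 0.24 (edgeR, adjusted p = 4.22e-06). In the fit with NPC, set out below, the bin changed by 1.43 ± 0.38 in ESC and 0.54 ± 0.30 in NPC (edgeR, adjusted p = 0.0776 and 0.574). In the fit with ESC bait 15 it changed by 1.175 ± 0.33 with bait 12 and 1.33 ± 0.40 with bait 15 (edgeR, adjusted p = 0.09025 and 0.101). Of the 5 busiest 1 kb windows beyond 5 Mb, 4 lay here, with 52, 49, 42 and 33 junctions. The fifth, chr15:74917001-74918000, had 16 under APH and 16 under DMSO. No gene of 200 kb or more is among the 50 in the interval on chromosome 17, and which of them holds these windows was not measured. Whether the reads in the chromosome 17 windows align uniquely was not checked.

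**Figure D4:**
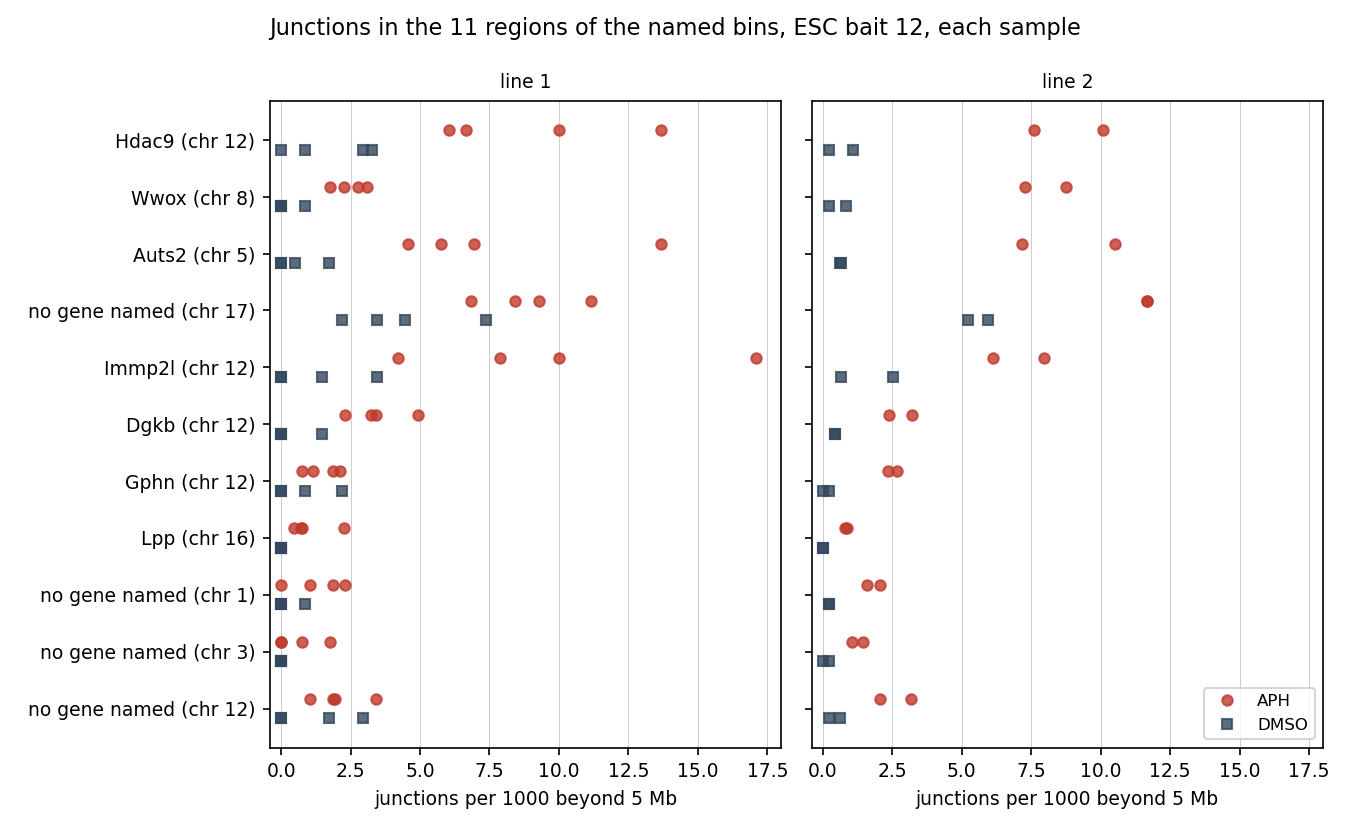
Junctions per 1000 beyond 5 Mb (horizontal axis) in the 11 regions, each point 1 sample, with APH circles above DMSO squares and 1 panel per line. Regions are called by the longest gene of the interval around their median APH junction. In the Hdac9, Wwox, Auts2, Immp2l, Dgkb and Lpp regions the APH points of each line lie to the right of all its DMSO points. The regions were chosen on these samples, and the share of all tested bins without overlap was not counted. The chromosome 17 region has the highest DMSO points.

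Just inside the threshold lay a bin at 55.5 Mb of chromosome 3, which the naming rule left out, with an adjusted p of 0.0498 in edgeR. Of the 5 bins just outside, 2 adjoin regions already described and 3 do not. The bin left of the Immp2l region, at 41.0 Mb of chromosome 12, differed by 2.04 ± 0.66 on the log2 scale, with 4, 5, 2 and 1 junctions in line 1 APH against 1, 0, 2 and 0 in line 1 DMSO (edgeR, adjusted p = 0.0507). The bin right of the Wwox region, at 117.5 Mb of chromosome 8, differed by 2.19 ± 0.72, with 4, 5, 1 and 4 junctions against 0, 0, 1 and 0 (edgeR, adjusted p = 0.0523). The other 3 lay at 67.5 Mb of chromosome 2, 78.5 Mb of chromosome 15 and 47.0 Mb of chromosome 12, with log2 differences of 2.96 ± 0.97, 2.75 ± 0.90 and 2.18 ± 0.72 (edgeR, adjusted p = 0.0523, 0.0523 and 0.0533).

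The orientation of the prey was compared next. A prey on the plus strand reads away from its junction toward higher coordinates, and one on the minus strand toward lower ones. Left of the break, more than 10 kb from it, plus-strand prey made up 29.7, 28.5, 33.3 and 26.8% of junctions in line 1 APH against 29.5, 42.0, 53.3 and 35.3% in line 1 DMSO. In line 2 it was 24.7 and 23.6% under APH against 35.6 and 29.1% under DMSO. Line 1 experiment A was level between treatments and the other samples were lower under APH. The mean difference was -9.28 points (exact permutation test, p = 0.0143, adjusted 0.0429 over 3 shares). The call did not hold with each position counted once, or without either line. Nor did it hold without 1 of line 1 APH A, B or D, line 1 DMSO C, line 2 APH AB or CD, or line 2 DMSO AB. Right of the break the difference was 2.36 points and on other chromosomes -0.621 points (exact permutation test, adjusted p = 0.324 for each).

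Most of the left-side junctions lay 10 to 100 kb from the break. There the plus-strand share was 22.2% ± 1.98 under APH and 34.8% ± 6.23 under DMSO in line 1 (SD, n = 4 each), and 20.2% ± 0.355 and 28.7% ± 4.76 in line 2 (SD, n = 2 each). From 100 kb to 1 Mb it was 37.8% ± 8.17 and 56.7% ± 24.1 in line 1, and 53.3% ± 4.06 and 49.8% ± 2.06 in line 2. From 1 to 5 Mb it was 44.8% ± 2.83 and 48.0% ± 11.6 in line 1, and 52.4% ± 12.9 and 56.1% ± 9.35 in line 2. From 5 to 20 Mb it was 63.8% ± 6.17 and 59.8% ± 13.6 in line 1, and 35.4% ± 1.99 and 43.4% ± 2.84 in line 2. The direction was the same in both lines at 10 to 100 kb and 1 to 5 Mb, and opposite at 100 kb to 1 Mb and 5 to 20 Mb. Plus-strand prey was in the minority at 10 to 100 kb under both treatments.

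In some of the gained regions the strands were offset from each other under APH. In the Hdac9 region the median plus-strand junction lay 70.9 kb right of the median minus-strand junction, with 61 plus and 73 minus junctions. The offset was 115 kb in the Wwox region (42 and 37 junctions), 195 kb in the Auts2 region (76 and 42) and 75.1 kb in the interval from 200 kb to 1 Mb right of the break (150 and 118). It had the same sign in both lines in these 4 regions. In the Immp2l region the offset was -9.66 kb (55 and 66), with opposite signs in the lines, and in the Dgkb region 55.4 kb (24 and 26), also with opposite signs. Regions on the other side of 0 were that on chromosome 1, at -45.3 kb (19 and 7), and the stretch at 51.5 Mb of chromosome 12, at -5.51 kb (20 and 14), both negative in both lines. The Gphn region was at -39.1 kb (24 and 7), the Lpp region at -3.38 kb (3 and 10), the chromosome 3 region at 114.7 kb (12 and 4) and the chromosome 17 region at 0.53 kb (96 and 67). The Gphn, Lpp and chromosome 3 offsets had opposite signs in the lines. The plot by strand shows the 3 regions with the smallest adjusted p of a bin and the interval right of the break. The offsets are medians over junctions and were not tested.

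**Figure D5:**
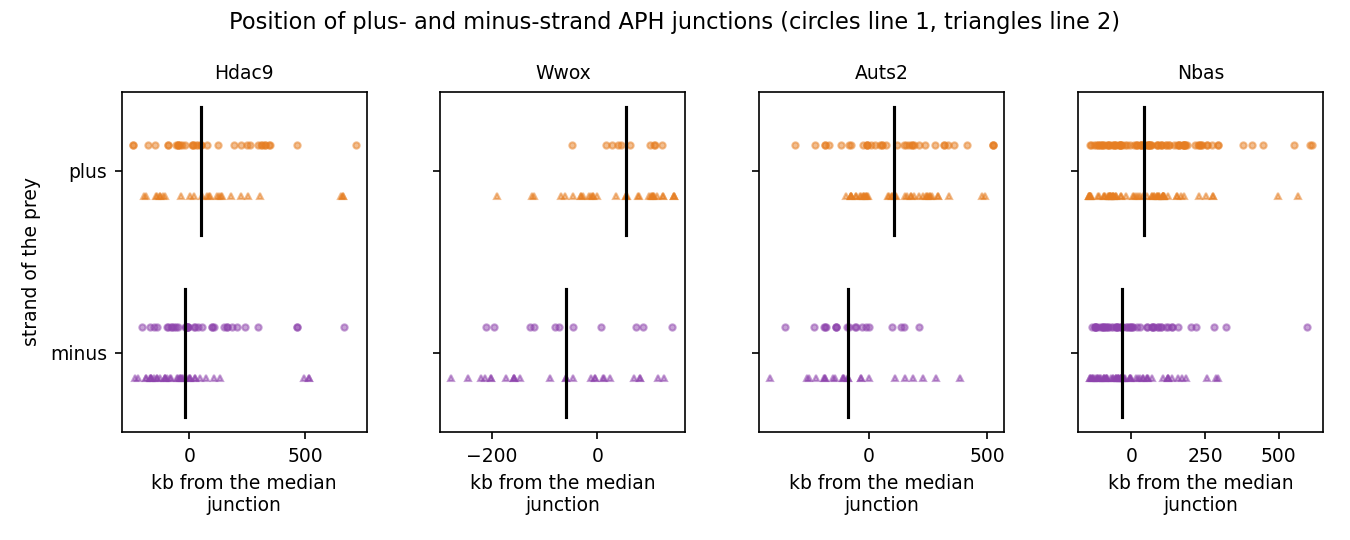
Position of APH junctions (kb from the median junction of the region, horizontal axis) by strand of the prey, for the Hdac9, Wwox and Auts2 regions and for 200 kb to 1 Mb right of the break (panel Nbas). Circles are line 1 and triangles line 2, and black lines are medians over both lines. In each panel the plus-strand median lies right of the minus-strand median, by 70.9, 115, 195 and 75.1 kb in panel order.

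The offset was also read in other libraries, with junctions counted once over a line and treatment. There the ESC bait 12 offsets under APH were 70.3 kb for Hdac9, 121 kb for Wwox, 206 kb for Auts2 and 72.5 kb right of the break. In NPC with the same bait they were 116, 45.3, 243 and 92.2 kb in that order. In ESC with the chromosome 15 bait the offset was 108 kb for Auts2 (75 plus and 85 minus junctions) and 74.2 kb for Wwox (61 and 54), but -25.9 kb for Wwox in line 2 alone. The Hdac9 region had 19 junctions from that bait, with an offset of -26.4 kb. DMSO samples of ESC bait 12 had 11 junctions or fewer in the Hdac9, Wwox and Auts2 regions, too few to read an offset. From 200 kb to 1 Mb right of the break they had 34 plus and 41 minus junctions with an offset of 5.27 kb (-84.0 in line 1, 26.6 in line 2). NPC under DMSO had 180 and 123 there with -53.7 kb. In the other regions NPC under DMSO had fewer junctions. Their offset was 244 kb for Hdac9 (18 plus and 29 minus), 11.7 kb for Wwox (5 and 8) and 201 kb for Auts2 (17 and 18). For Hdac9 it was positive in both lines (219 and 353 kb), and for Wwox and Auts2 the lines had opposite signs.

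No difference between treatments in the form of the joins passed its test. Beyond 5 Mb, overlapping joins made up 60.7% ± 5.36 under APH and 59.96% ± 6.44 under DMSO in line 1 (SD, n = 4 each), and 72.1% ± 1.37 and 72.6% ± 0.234 in line 2 (SD, n = 2 each). Joins with inserted bases made up 33.1% ± 5.76 and 33.3% ± 6.51 in line 1, and 20.9% ± 0.956 and 21.6% ± 0.161 in line 2. Of 8 measures of overlap, blunt joins and insertion, 0 passed (exact permutation tests, adjusted p from 0.381 to 0.957), and 0 had an unadjusted p under 0.05. Without junctions found under both treatments, 2 measures within 5 Mb passed: overlapping joins were higher under APH by 5.58 points and inserted joins lower, by -4.29 points (exact permutation test, adjusted p = 0.0190 for each). With all junctions these differences were 2.43 and -1.84 points (adjusted p = 0.381 for each). In the gained regions the overlap share under APH was 69.4% near Hdac9, 70.9% near Wwox and 70.3% near Auts2, with a median overlap of 2, 3 and 2 bases.

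Finally, the APH effect of this bait was set beside that of ESC with the chromosome 15 bait and of NPC with the chromosome 12 bait. Bait 15 experiments shared junctions too. All of line 1 APH (A to D) was counted as 1 sample, and so were line 1 DMSO A and C, line 2 APH A and D, and line 2 DMSO B and D. Line 1 APH C also shared 17.6% with line 1 DMSO B, which was left as it was. Outside chromosomes 12 and 15, the difference between the baits called 0 of 1385 bins in edgeR (116 at an unadjusted p under 0.05) and 0 in DESeq2 (6 unadjusted). In that fit the 7 named bins tested had a median log2 change of 3.41 with bait 12 and 2.73 with bait 15, where the medians of all bins were -0.0339 and 0.761. With bait 12 this fit called 3 bins (0.217% of those tested), all of them named ones. The named bins were chosen on these same bait 12 junctions, so their bait 12 calls here are no separate support. With bait 15 all 7 were above 0 and the same 3 were called, out of 5 called in that set (0.361%). These were the Wwox bin, at 3.58 ± 0.59 with bait 12 and 3.48 ± 0.47 with bait 15, and both Auts2 bins, at 3.53 ± 0.65 and 3.79 ± 0.60, and at 3.41 ± 0.65 and 3.68 ± 0.58. On chromosome 12 the chromosome 15 bait recorded 18 junctions under APH and 1 under DMSO in the first Hdac9 bin, and 4 and 0 in the Dgkb bin.

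The difference between ESC and NPC called 0 of 4330 bins in edgeR (292 at an unadjusted p under 0.05) and 0 in DESeq2 (58 unadjusted). The 15 named bins had a median log2 change of 3.23 in ESC and 1.97 in NPC, where the medians of all bins were 0.0419 and 0.16. The NPC lines were not independent: line 1 APH C shared 43.5% of its junctions beyond 5 Mb with line 2 APH D and 15.8% with line 2 APH C, and line 1 DMSO C shared 9.44% with line 2 DMSO D. Without line 1 APH C and DMSO C the difference again called 0 bins (278 at an unadjusted p under 0.05). In this fit 6 bins were called in ESC (0.139% of those tested), all named ones. All 15 were above 0 in NPC and 9 were called, out of 75 called in NPC (1.73%). The named bins were chosen for their change in the ESC samples. Their ESC calls in this fit are thus no separate support, and a smaller median elsewhere is no test. The first Hdac9 bin changed by 3.53 ± 0.54 in ESC and 2.16 ± 0.40 in NPC (difference, edgeR unadjusted p = 0.0538). Of the 3 bins with a difference at an unadjusted p under 0.05, the chromosome 3 bin had 24 junctions under APH and 13 under DMSO in NPC.

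Bins chosen from other libraries were then read in these. The pools of ESC with baits on chromosomes 7 and 15 gave 4 bins that rose with APH of 1333 tested (0.3%) and 1 that fell (0.075%). The 4 were both Auts2 bins, the Wwox bin and a bin at 117.5 Mb of chromosome 14. With bait 12, the chromosome 14 bin held 0, 4, 2 and 1 junctions in line 1 APH against 0 in each line 1 DMSO sample, and 2 and 5 in line 2 APH against 1 and 2 in line 2 DMSO. Its change was 2.15 ± 0.86 (edgeR, adjusted p = 0.172), with 14 junctions under APH and 3 under DMSO in all.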

How the data were processed

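Junctions were mapped by linear amplification-mediated HTGTS, per the labels' protocols. The submitters' processing notes name Bowtie2 and mm9; for versions, the junction caller and filters, nothing was given in the sources at hand. The deposited tables list 1 read per row, so values are raw junction counts, with no normalization by the authors. A read name counted 1 time in a table. No mm9 genome or annotation was used, so counts per gene were not made.

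Experiments of a group that shared at least 10% of junctions beyond 5 Mb (same prey position, strand and bait end) were made 1 sample. This departs from the planned 16 single experiments. Bins of 500 kb with at least 12 junctions over the samples were tested with edgeR 4.0.16 in R 4.3.3 (TMM, quasi-likelihood, line as covariate, Benjamini-Hochberg over all bins at 0.05), and with DESeq2 1.42.0 as an alternative. Shares were averaged within merged pairs and tested by exact permutation of treatment within line, two-sided. Distances ran from the most frequent bait end. The 15 named bins were those of smallest adjusted p, out of the calls that had equal signs in lines 1 and 2. Gene starts were placed by 24-base matches of RefSeq GRCm38.p6 promoters in prey reads, and 1988 of 2390 starts found kept the same order. Members and lists were chosen with earlier results of these data known. The junction counts carry no molecular identifiers, so precision is that of read counts. Tests were tried on simulated counts. In bin counts same-letter samples did not deviate together, so the fit has no block for letters; in the shares line 1 experiment A deviated alike under both treatments, and the paired test is given beside them.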

Additional observations from a re-analysis of the deposited data

Results flagged for a closer look

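The share of junctions on other chromosomes differed between the lines, since the mean over same-letter pairs was 3.58 percentage points higher under APH in line 1 and -0.588 points in line 2, with every pair of a line on the same side. Blunt joins beyond 5 Mb differed likewise, by -0.561 points in line 1 and 1.26 in line 2. Neither difference was tested.

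Among 66 groups of 4 samples looked at, 6 had 1 sample far from the others. Only line 1 was looked at, as line 2 has too few samples. Chance gives about 1 in 20 for continuous values, a rate that does not hold for groups made up mostly of 0. Where 3 samples hold 0, any junction in the other sample meets the rule. All 6 were sparse groups, given here in junctions per 1000 beyond 5 Mb. Line 1 DMSO experiment B had 0.860 in the Wwox bin, 0.860 in the chromosome 1 bin and 3.44 in the bin at 42.0 Mb of chromosome 12, where its 3 companions had 0. Line 1 DMSO experiment C had 1.47 in the Dgkb bin and 1.47 in the bin at 41.5 Mb of chromosome 12, again with 0 in the others. Line 1 APH experiment C, the shallowest APH sample, had 2.28 in the Lpp bin against 0.464 to 0.769 in the others.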

How the results depend on the processing

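The 16 bins that rose with APH became 8 with 1 Mb bins, 4 with no filter on low counts, 9 without line 2 and 9 with line 2 as 1 sample per treatment, and 23 with the 16 experiments kept single (19 higher, 4 lower). Leaving out single samples gave 8 to 18 bins over both lines (8 without line 2 APH CD, 10 without line 2 APH AB, line 1 APH A or line 1 DMSO A). It gave 5 to 11 in line 1 in place of 11 (5 without line 1 DMSO A or C), 3 to 8 in line 2 in place of 8 (3 without line 1 APH D, line 2 APH CD or line 2 DMSO AB, 4 without line 2 DMSO CD, 5 without line 1 DMSO A, line 1 DMSO C or line 2 APH AB), and 0 for the difference between lines. Line 1 had 6 with 1 Mb bins, 5 with DESeq2 and 4 with library size alone; line 2 had 3, 2 with DESeq2, 3 with a replicate block and 18 with single experiments. In bin counts the replicate numbers did not pair the samples (same-letter correlations -0.0325 to 0.0372); this does not cover the shares. With the replicate block, 11 bins passed over both lines, and the shares within 10 kb (-4.10 points), at 10 kb to 5 Mb (1.93) and of chromosome 12 among far junctions (2.91) passed at an adjusted p of 0.0391; the right-hand bands (2.68 and 3.27 per 1000) did not (0.0750).

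Chromosome 12 beyond 5 Mb no longer passed with positions counted once (0.668 points), without line 1 (0.296) or without line 2 (1.03). Other chromosomes reversed to -0.602 with positions counted once and -0.588 without line 1, and ranged from -0.0223 (without line 1 APH A) to 2.44 without single samples. With limits of 2 kb and 1 Mb the near share differed by -12.4 points and the next by 10.2, both past the threshold. Without single samples the 10 kb to 5 Mb share ran from 1.59 to 2.46 (past the threshold without line 1 APH C), overlapping joins from -1.48 to 1.38, inserted from -1.79 to 1.18 and mean overlap from -0.0868 to 0.120. Without line 1, overlapping joins (-0.573) and mean overlap (-0.0395) reversed, and without line 2 blunt joins did (-0.561). Without junctions found under both treatments 2 structure measures passed, overlapping and inserted joins within 5 Mb. The strand call was 0 with positions counted once, with the block and without either line, and 0 to 1 without single samples. The bands stayed higher at 2.55 to 2.80 and 2.78 to 3.75 per 1000 without single samples, at 2.37 and 2.74 without line 1, and at 2.99 and 3.79 without line 2, not past the threshold in the last 2 settings. With 2 samples a treatment, line 2 alone cannot give a p under 0.333. The causes were not tested. Counting the APH effect in genes was not run.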
